A study of Homo sapiens with 4 samples.

Results

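Keratin genes were taken as all genes whose symbol in the array annotation is KRT followed by a number, with pseudogenes and keratin-associated proteins left out. This gave 56 of the 34755 genes on the array, 55 keratins and the antisense RNA KRT73-AS1, which the rule includes. All 56 matched the GRCh38.p14 gene table, 28 on chromosome 12 and 28 on chromosome 17. They were followed in SUM149, a line of inflammatory breast cancer cells, either untreated or exposed to 2.5 uM of ACY1215 (Ricolinostat, an inhibitor of the deacetylase HDAC6) for 3, 6 or 12 hours. Each condition was hybridised once, with the sample in Cy5 and a common reference in Cy3, so no test between conditions was made and no value has a replicate error. No array of vehicle-treated cells was analysed here, so the effects of the drug and of time in culture cannot be told apart.

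Keratins are the intermediate filament proteins of epithelial cells. Each filament pairs an acidic type I keratin with a basic type II keratin, and the pairs mark the kind of epithelium: KRT5 with KRT14 in basal and myoepithelial cells, KRT8 with KRT18 in simple epithelia and in the luminal cells of the breast. KRT6A, KRT6B, KRT6C, KRT16 and KRT17 are made in activated or wounded epidermis and in many basal-like breast cancers, and the hair keratins, KRT31 to KRT40 and KRT81 to KRT86, build the hair shaft. Type II genes lie together on chromosome 12 and type I genes on chromosome 17, with KRT18 as the type I gene beside KRT8 on chromosome 12.

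The 250 bases before the start of 3 keratin genes are given as RefSeq holds them on GRCh38.p14, on the strand of the gene. They stand for the gene that fell beyond 2-fold (KRT34, chr17:41382307-41382556, minus strand), a luminal gene (KRT8, chr12:52926470-52926719, minus strand) and a basal gene (KRT5, chr12:52520395-52520644, minus strand). Capitals mark matches to words searched for on both strands. The words were TATAAA for the core promoter box, then GGGCGG for the sites of SP1 and KLF factors, then TGANTCA for the sites of AP-1 factors, and lastly ACCGGT for the core of grainyhead sites. They do not overlap in these windows.
KRT34: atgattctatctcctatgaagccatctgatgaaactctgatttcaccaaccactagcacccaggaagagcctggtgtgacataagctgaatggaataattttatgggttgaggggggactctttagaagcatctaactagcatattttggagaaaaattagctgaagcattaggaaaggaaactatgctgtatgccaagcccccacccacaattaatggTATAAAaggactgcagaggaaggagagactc
KRT8: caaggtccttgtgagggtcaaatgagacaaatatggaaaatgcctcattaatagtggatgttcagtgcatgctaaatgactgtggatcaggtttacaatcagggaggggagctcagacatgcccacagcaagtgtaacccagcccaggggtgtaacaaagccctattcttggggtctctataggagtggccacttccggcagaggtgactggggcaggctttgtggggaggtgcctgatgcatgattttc
KRT5: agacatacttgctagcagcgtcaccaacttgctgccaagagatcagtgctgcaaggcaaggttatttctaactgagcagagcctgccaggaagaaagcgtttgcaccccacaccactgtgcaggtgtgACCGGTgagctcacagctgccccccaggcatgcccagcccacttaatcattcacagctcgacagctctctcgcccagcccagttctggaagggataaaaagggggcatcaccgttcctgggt
KRT34 holds TATAAA with its first base at position -31 from the start, and KRT5 holds ACCGGT with its first base at -122. None of the words is in the KRT8 window. Among 27305 promoters of this length, 11.1% hold TATAAA and 1.41% hold ACCGGT, compared with 42.3% for GGGCGG and 6.60% for TGANTCA. A match is a description of the letters only, and 35 of the 56 genes have a promoter in the table used.

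Every array had 62976 spots, with median Cy5 signals of 36 to 40 units over a local background of 24 units and no saturated spot. On the untreated array 3.38% of spots and on the 3-hour array 4.71% lay in areas with a defect in Cy3 signal or outlier flags, against 0.199% at 6 hours and 0.00821% at 12 hours. The scatter of a log2 change between repeated spots of 297 probes had a median SD of 0.11 at both 3 and 6 hours and of 0.10 at 12 hours. This SD covers the spots of an array and not cultures, labelling or hybridisation, and with a single array per condition it is the only error known.

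Untreated SUM149 cells carried signal of both the basal and the luminal keratins. A gene was called detected when its probe was well above background in Cy5 by the scanner software, each gene being read from its probe that was brightest on average in Cy3. Of the 56 keratin genes 37 were detected (66.1%, exact binomial 95% interval 52.2% to 78.2%, counting error only), 17 were not well above background and 2, KRT6A and KRT80, had only an outlier-flagged spot. Among all genes 63.8% were detected. All 5 luminal or simple keratins (KRT7, KRT8, KRT18, KRT19, KRT20) were detected, as were 7 of the 8 basal keratins (KRT5, KRT6B, KRT6C, KRT14, KRT15, KRT16, KRT17), the eighth being KRT6A. Of the other classes 8 of 16 other epidermal, 5 of 9 inner root sheath and 11 of 17 hair keratins were detected. After treatment 39, 38 and 39 of the 56 were detected in order of time (69.6%, 67.9% and 69.6%), against 67.1%, 63.3% and 63.9% of all genes. Of the keratin genes 34 (60.7%) were detected on all 4 arrays and 14 (25%) on none, against 59.0% and 29.1% of all genes. The antisense RNA KRT73-AS1 gave 54.5, 45, 41 and 38 units.

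Markers fixed for the mammary lineages and for other cell types were read on the same arrays. TP63, a transcription factor of basal cells, was not well above background in Cy5 on any array (23 to 24 units), and neither was PGR, the progesterone receptor (23 to 25 units). EGFR was at 975.5 units in untreated cells, and GATA3, a luminal transcription factor, at 541 units. The luminal receptor ESR1 and its cofactor FOXA1 were at 199 and 322 units on their representing probes. Other ESR1 probes gave 33 and 25 units and the other FOXA1 probe 26 units in untreated cells. Those at 25 and 26 units were not well above background in both dyes. The paper lists SUM149 as Basal B and negative for the estrogen receptor. The epithelial markers EPCAM (19086 units) and CDH1 (3387 units) were detected, as was the mesenchymal filament VIM (7021 units). The leukocyte markers PTPRC and CD3E gave 181 and 150.5 units in untreated cells. Both were well above background in Cy5 on all arrays, so the rule used for the keratins calls them detected too. Other PTPRC probes gave 85.5 and 38 units in untreated cells, well above background, and 23 and 24 units, which did not pass in both dyes. Detection of a dim probe is therefore weak evidence that the gene is expressed. Different probes differ in brightness, so units are compared only across arrays and never between genes.

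KRT7, the type II keratin of glandular epithelia, gave 126980 units in untreated cells, then 134114, 106359 and 124345 units at 3, 6 and 12 hours. KRT18 gave 41407.5, 49472.5, 32265 and 36596 units over the same arrays. KRT19, a type I keratin of simple epithelia without a fixed partner, gave 32359, 41891.5, 34030 and 48076.5 units in the same order. The 12-hour array was the brightest of the 4 for KRT19, and the 3-hour array was the brightest for KRT7 and KRT18. KRT8 gave 5123, 6135, 5038 and 5551 units. KRT20, a keratin of the gut and of urothelial umbrella cells, was at 32 and 32.5 units at 0 and 3 hours and was not well above background at 6 and 12 hours.

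The basal keratins had their own signal in Cy5 on every array. KRT5 gave 7082.5, 8967, 6607.5 and 10147 units over the 4 arrays, and its Cy3 signal gave 270, 356, 317 and 492 units, so both channels were brightest at 12 hours. KRT6B gave 19553, 18870, 13389 and 18524.5 units, and KRT6C 5599.5, 4157, 2876.5 and 4030 units. KRT17 gave 7133, 6868, 4493 and 6622 units. In these units, which are not normalized between arrays, the 4 genes were dimmest at 6 hours. So were KRT7, KRT8 and KRT18 above and KRT14, KRT15 and KRT16 below. After normalization KRT5 was lowest at 3 hours, at -0.16 on the log2 scale against -0.09 at 6 hours. KRT16 gave 2234, 1554, 1108 and 1286 units, and the representing probe of KRT14 gave 1012, 729, 487 and 586 units. KRT15, a keratin of resting basal cells, was at 601, 529, 356 and 363 units. For KRT14, KRT15 and KRT16 each treated array was dimmer than the untreated one in Cy5.

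Measured against the common reference, most basal keratins stood on the sample side and most luminal keratins near or below it, each on its representing probe. In untreated cells the log2 ratio of Cy5 over Cy3 was 5.68 for KRT6B, 4.84 for KRT6C, 4.05 for KRT5, 3.94 for KRT17, 3.85 for KRT16 and 3.62 for KRT14, while KRT15 was at -0.98. Of the luminal keratins KRT7 was at 3.30, KRT19 at -0.24, KRT18 at -0.90 and KRT8 at -1.04. The other KRT8 probes were at -0.06 and 0.04, and the second KRT18 probe at -0.59. These ratios describe the sample relative to the reference and do not rank the genes by level. Sample and reference signals were both well above background on all arrays for 33 keratin genes, the ones called measured here. Cy5 was at least 2-fold above Cy3 on every array for 11 of them (33.3%), against 4.23% of the 19972 genes that met this condition. They were 6 of 7 basal keratins, KRT7, the epidermal keratin KRT9 and the hair keratins KRT81, KRT83 and KRT86. For KRT23 alone it was at least 2-fold below on every array, at -2.27 in untreated cells, against 7.36% of all genes. The second KRT23 probe was at -0.57 in untreated cells.

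**Figure D1:**
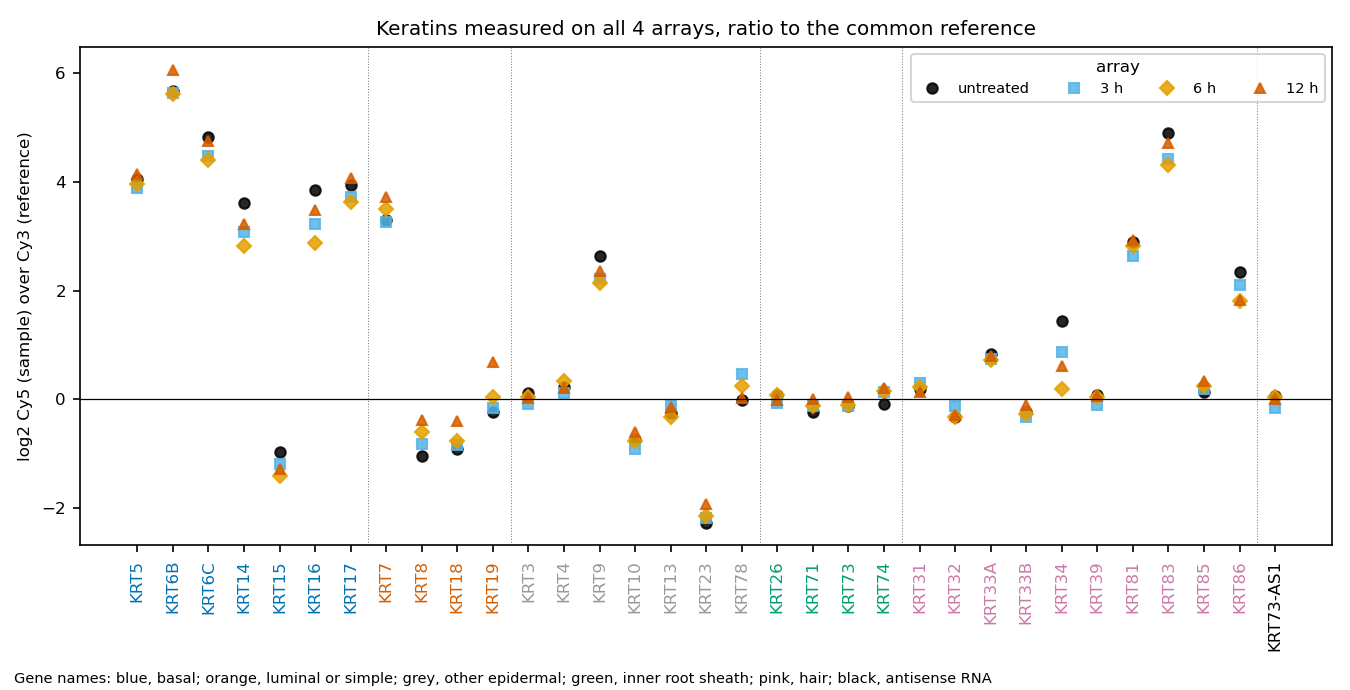
Log2 ratio of Cy5 (sample) over Cy3 (reference) for the 33 keratin genes measured on all 4 arrays, 1 symbol per array, grouped by class. On the untreated array KRT6B lies highest at 5.68 and KRT23 lowest at -2.27, and 6 of the 7 basal keratins lie above 1 on all arrays, as KRT7 does among the luminal ones.

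The labels describe the reference as RNA pooled from the untreated and treated cells of the same line. An equal pool of the 4 samples would place the ratios of a gene on both sides of 0 or at 0. On their representing probes these 12 genes instead lay beyond 2-fold on 1 side on all arrays. ALB, a liver gene, had a log2 ratio of -7.03 in untreated cells. What the reference holds and any dye bias of single probes were not tested. A reference common to all arrays cancels in the change from untreated, which is the quantity used from here on, given on the log2 scale as the ratio at a time minus the ratio of the untreated array.

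With a threshold of 2-fold, 0 of 33 measured keratin genes rose at 3, 6 or 12 hours. Over all genes 1.7% rose at 3 hours, 2.81% at 6 hours and 2.34% at 12 hours. At 6 hours 1 keratin fell, KRT34, where 0.96% of all genes did. At 3 and 12 hours 0 fell, where 0.388% and 1.14% of all genes did. With 33 genes, counts of 0 and 1 are within 1 gene of these background shares. In RNA from a whole culture, fewer cells of a kind and less RNA per cell cannot be told apart. At 3, 6 and 12 hours the 33 genes had median changes of -0.10, -0.03 and 0.04, next to 0.01, 0.02 and 0.01 over all genes.

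KRT34, a type I keratin of the hair cortex, gave Cy5 signals of 306, 213, 108 and 133 units while its Cy3 signal stayed between 81.5 and 95 units. The signal was lowest at 6 hours, at about the level of its reference. Its log2 changes were -0.57, -1.25 and -0.83 in order of time. Over 11 ways of processing the 6-hour change lay between -1.69 and -1.19. KRT34 has 1 probe on the array, and it lay outside the damaged areas.

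In all 4 measured luminal keratins the value at 12 hours was above that at 6 hours, and none of them passed 2-fold. The value at 12 hours was also the higher one in all 7 measured basal keratins, in 27 of 33 keratin genes (81.8%) and in 48.4% of all genes. KRT19 was 0.07, 0.29 and 0.92 higher than in untreated cells at 3, 6 and 12 hours. KRT8 was 0.22, 0.44 and 0.66 higher on its representing probe. KRT18 was 0.06, 0.14 and 0.50 higher, and KRT7 changed by -0.03, 0.20 and 0.42. The medians of the 4 genes were 0.07, 0.24 and 0.58. At 12 hours the median was 0.11 with median centring in place of loess, where the median of all genes was -0.16 and KRT7 and KRT18 stood at -0.09 and -0.03. All 4 genes were above the median of all genes at 12 hours under each of the ways of processing.

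The second coding probe of KRT8 changed by 0.01, 0.20 and 0.42, and the third, designed on a non-coding transcript, by 0.07, -0.09 and 0.01. The second probe of KRT18 changed by -0.06, 0.06 and 0.38. Probes of processed pseudogenes, which are near-identical copies of these genes and can share their signal, stood at 0.73 for KRT19P2, 0.52 for KRT18P55, 0.63 for KRT8P12 and 0.19 for KRT8P41 at 12 hours. A rising order from 3 over 6 to 12 hours held for 4 of 4 luminal keratins, for 13 of 33 keratin genes and for 22.5% of all genes. That order held for 0 of 4 with median centring, 1 of 4 in the Cy5 channel alone, 2 of 4 with the Feature Extraction signals and 3 of 4 in the authors' table, whereas 12 hours was above 6 hours for each of the 4 under those settings as well.

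Most basal keratins had their low point at 6 hours, KRT5 excepted. All 7 measured genes were below 0 at 3 and at 6 hours, and 4 of 7 at 12 hours, with medians of -0.21, -0.43 and -0.08. The same counts were below the median of all genes. Of the 33 measured keratin genes 22, 21 and 15 were below 0 in order of time. Below 0 at 6 hours were 5 of 7 basal keratins with the Feature Extraction signals and 6 of 7 with the Cy5 channel alone or the authors' table. With outlier-flagged spots kept it was 7 of 8. KRT16 was at -0.63, -0.97 and -0.38, and KRT14 at -0.54, -0.79 and -0.39. KRT6C was at -0.35, -0.44 and -0.08, and KRT15 at -0.20, -0.43 and -0.31. These 4 genes were below 0 at every time, KRT14 on its representing probe only, as were 39.4% of the keratin genes and 31.7% of all genes. KRT17 was at -0.21, -0.31 and 0.14, KRT6B at -0.03, -0.05 and 0.39, and KRT5 at -0.16, -0.09 and 0.10. The values of KRT6B at 3 and 6 hours and of KRT5 at 6 hours lay within the technical SD of 0.11. Those of KRT5 and KRT6C at 12 hours lay within the 12-hour SD of 0.10. At 6 and at 12 hours KRT6C was above 0 in 1 of 11 ways of processing. The Cy5 signal of KRT5 alone was 0.89 higher at 12 hours, while Cy3 was 0.72 higher at the same spot.

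The value at 12 hours was above that at 6 hours in all 7 basal keratins, in 27 of 33 keratin genes (81.8%) and in 48.4% of all genes. The lowest value fell on 6 hours, below 0, in 6 of 7 basal keratins, in 39.4% of the keratin genes and in 20.3% of all genes. The basal count for 6 hours as the lowest time was 3 of 7 in the authors' table and 7 of 7 with median centring. The low points of KRT14, KRT16 and KRT17 were measured with probes that close relatives may also bind, since these 3 genes, the KRT6 genes and the group of KRT81, KRT83 and KRT86 are near-identical within each group. Of the pseudogenes of type I epidermal keratins, KRT16P2 was at -0.20, -0.16 and 0.03 and KRT42P at -0.47, -0.43 and 0.13, the latter in a damaged area at 3 hours.

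**Figure D2:**
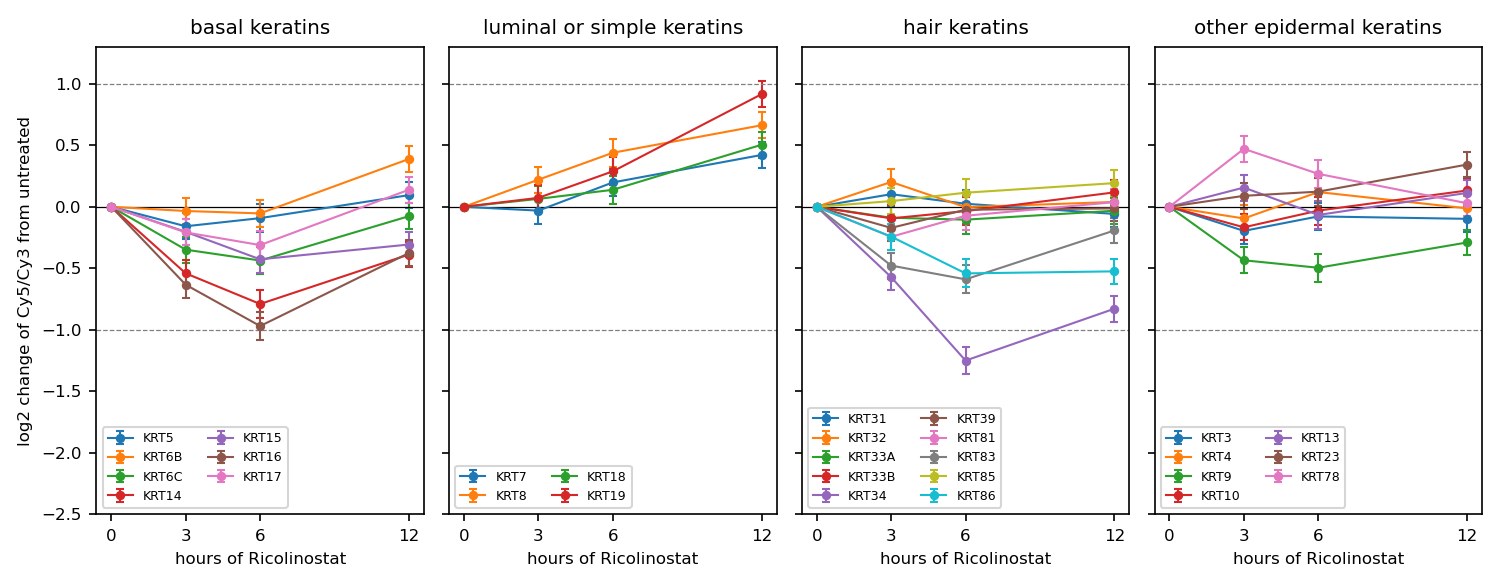
Log2 change of Cy5 over Cy3 from the untreated array against hours of Ricolinostat, 1 line per gene in 4 classes of keratins, with 1 array per time. Bars are the median technical SD between repeated spots and dashed lines mark 2-fold. KRT34 passes the lower line at 6 hours (-1.25), 6 of the 7 basal lines are lowest at 6 hours, all but KRT5, and each luminal line is highest at 12 hours (0.92 for KRT19).

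KRT14 was the gene most dependent on a single spot. Its second probe gave 10663, 7864.5 and 10640 units at 3, 6 and 12 hours, but the spot on the untreated array carried an outlier flag and lay in a damaged area, at 3621 units. With that spot kept, a choice made after seeing the data, KRT14 stood at 1.68, 1.46 and 1.94 and was counted as risen at each time (1.82%, 2.92% and 2.45% of all genes rose with such spots kept), against -0.54, -0.79 and -0.39 on the representing probe. Among the treated arrays, where the spot was usable, the second probe changed by -0.21 from 3 to 6 hours and by 0.26 from 3 to 12 hours. The direction of KRT14 against untreated cells therefore depends on whether that spot is read.

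KRT6A and KRT80 had no usable untreated spot, and their changes from untreated are not given. KRT6A, an inducible epidermal keratin, gave 43756, 29092 and 34275 units at 3, 6 and 12 hours, and its log2 ratio was 0.07 higher at 6 than at 3 hours and 0.45 higher at 12 than at 3 hours. KRT80, a keratin related to cell differentiation in many epithelia, gave 3185, 2946 and 3985.5 units, and its ratio was 0.11 and 0.72 higher. The flagged untreated spot of KRT80 had a Cy3 signal of 247.5 units, where the other arrays gave 710.5 to 771 units. With that spot kept KRT80 was counted as fallen at 3 and 6 hours, beside KRT34 at 6 hours, and 0 keratin genes fell at 12 hours. Over all genes the share falling with such spots kept was 0.6%, 1.2% and 1.38% in order of time.

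**Figure D3:**
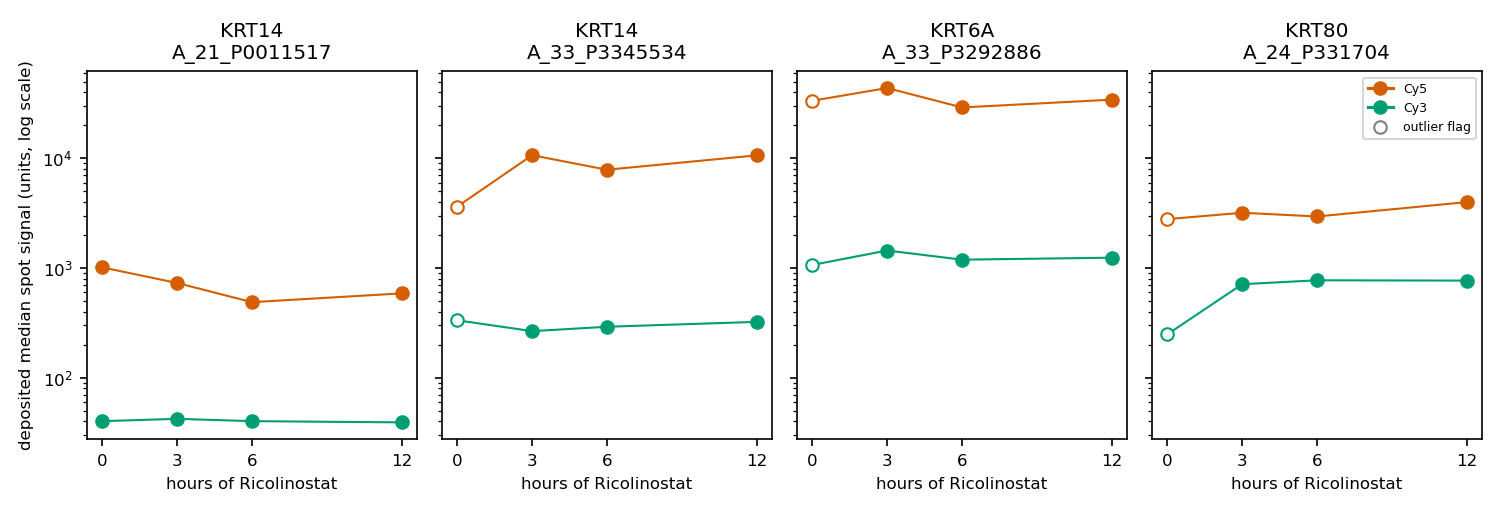
Deposited median spot signal in units on a log axis against hours of Ricolinostat for both KRT14 probes, KRT6A and KRT80, in Cy5 (orange) and Cy3 (green). Open circles carry an outlier flag, which is the case for 3 of the 4 untreated spots, and the untreated Cy5 signal of the second KRT14 probe (3621 units) is below those of the treated arrays.

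With a threshold of 1.5-fold the counts were 1 fall at 3 hours (KRT16), 4 falls at 6 hours (KRT14, KRT16, KRT34, KRT83), and 2 rises (KRT8, KRT19) and 1 fall (KRT34) at 12 hours, each of 33 genes. The shares over all genes at this threshold were 1.98% falling at 3 hours, 4.46% falling at 6 hours, 8.09% rising at 12 hours and 5.18% falling at 12 hours. At 3 and 6 hours 0 of 33 rose 1.5-fold, where 6.89% and 9.4% of all genes did. The falls at 6 hours were 12.1% of the keratin genes. Of these, KRT14 stood at 1.46 with its flagged spot kept, and the second KRT83 probe was at -0.20. With flagged spots kept the falls at 6 hours were 4 of 35 genes, with KRT80 in place of KRT14.

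Among the hair keratins, KRT81, KRT83 and KRT86, which several breast cancer lines express, had the following signals. KRT81 gave 181208, 151861, 149910 and 167238 units and changed by -0.24, -0.07 and 0.04, with -0.99 at 3 hours in the Feature Extraction signals. At 12 hours KRT81 was below 0 in 4 of 11 ways of processing. KRT83 gave 28621.5, 24244, 16024 and 19324 units and changed by -0.48, -0.59 and -0.19, while its second probe changed by -0.19, -0.20 and 0.03. KRT86 gave 4194, 3975.5, 2421 and 2244 units and changed by -0.24, -0.54 and -0.53. The other 6 measured hair keratins beside KRT34, namely KRT31, KRT32, KRT33A, KRT33B, KRT39 and KRT85, of which the untreated KRT31 spot was in a damaged area, stayed between -0.17 and 0.20 at all times. Over 10 measured hair keratins the median was -0.13, -0.05 and -0.02.

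None of the 7 measured other epidermal keratins passed 1.5-fold. KRT9, a keratin of palm and sole skin, gave 1079, 885, 582.5 and 668 units and changed by -0.44, -0.50 and -0.29. KRT78 gave 327, 475.5, 406.5 and 379 units, with its highest change of 0.47 at 3 hours and 0.03 at 12 hours. KRT10, the type I keratin of suprabasal epidermis, gave 14073, 11337.5, 9658.5 and 9186 units and changed by -0.17, -0.03 and 0.13. KRT23 was at 51 to 62.5 units and changed by 0.09, 0.12 and 0.34. KRT13, a mucosal keratin whose untreated spot lay in a damaged area, changed by 0.16, -0.07 and 0.11, and KRT3 and KRT4 stayed between -0.20 and 0.12.

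Of the inner root sheath keratins 4 were measured, KRT26, KRT71, KRT73 and KRT74, and they stayed between -0.14 and 0.29. KRT73 was at 1638.5 to 2137 units and changed by -0.01, 0.02 and 0.16. KRT75, a keratin of the companion layer, was detected in Cy5 on all arrays at 363.5, 238, 219.5 and 270.5 units, but its reference signal was well above background only on the untreated array. By chromosome, the genes on chromosome 12, KRT18 and KRT73-AS1 among them, had a median of 0.10 at 12 hours over 17 measured genes, and the chromosome 17 genes a median of -0.02 over 16. Of the genes detected on only 1 of the arrays compared, KRT20 was 1.11-fold lower in Cy5 at 6 hours. This is the observed fold between its normalized signals, which in units were 32 and 25.5, near background. KRT77 went from 24 to 45 units in Cy5 at 12 hours while Cy3 at the same spot went from 24 to 49 units, and its ratio was 0.10 higher on the log2 scale.

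**Figure D4:**
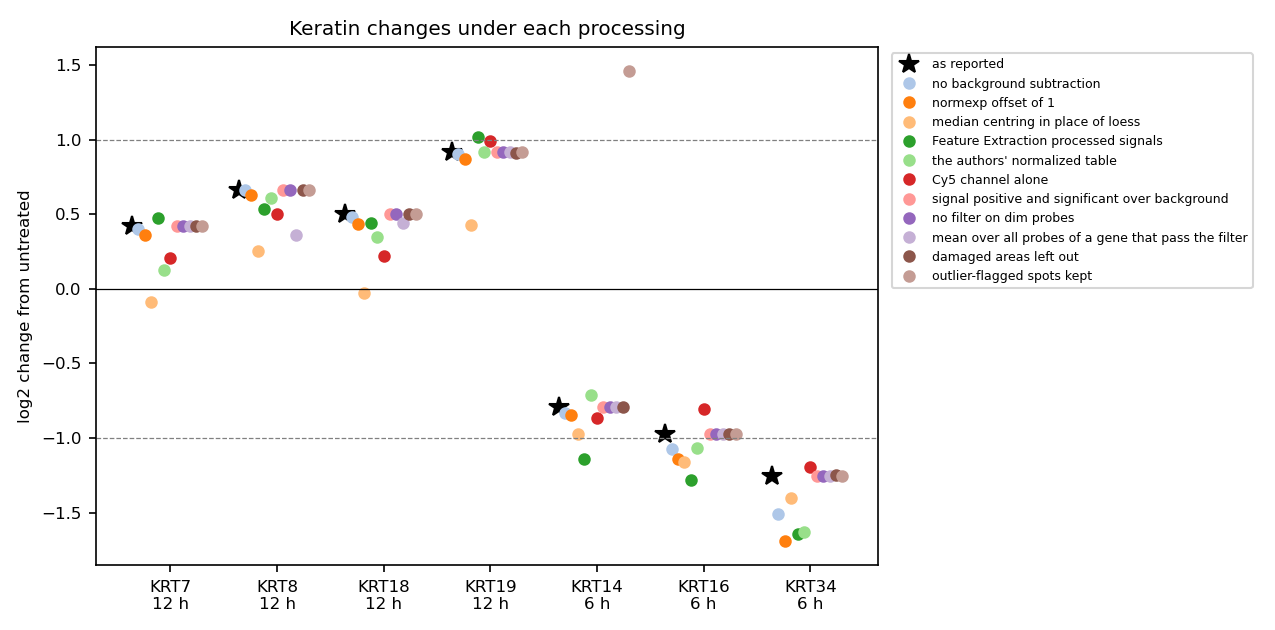
Log2 change from untreated for 7 keratins, at 12 hours for KRT7, KRT8, KRT18 and KRT19 and at 6 hours for KRT14, KRT16 and KRT34, with 1 point for each way of processing and a star for the value as reported. KRT19 stays above 0 at 0.43 to 1.02, KRT34 stays below 0 at -1.69 to -1.19, and KRT14 turns to 1.46 where outlier-flagged spots are kept.

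Transcription factors and receptors with roles in epithelial and keratin gene expression gave more 2-fold calls than the keratins. This list was chosen with earlier results of these data known, so its counts are a description and not a test. Of 24 such regulators 21 were measured, and 5 rose 2-fold and 0 fell at each time, with a median of 0.24 at 12 hours. Over all genes 1.7%, 2.81% and 2.34% rose and 0.388%, 0.96% and 1.14% fell. Outside damaged areas the rises were 3 of 18, 4 of 19 and 4 of 20 in order of time. At 12 hours the 5 were GRHL1, GRHL3, OVOL1, ELF3 and KLF5, all transcription factors of epithelial differentiation. GRHL1, a grainyhead factor, gave 252, 1681, 2234 and 1724 units and rose by 2.27, 2.85 and 2.69. Its second probe, with 36.5, 58.5, 68 and 61 units, stood at 0.44, 0.70 and 0.68. GRHL3 gave 55.5, 209.5, 363 and 320 units and rose by 1.39, 2.12 and 2.08, while its second probe, at 28 to 33 units, stood at -0.23 at 3 hours and 0.01 at 12 hours and was not well above background at 6 hours. ELF3, an ETS factor of epithelia, rose by 1.32, 1.65 and 1.57, and the zinc finger factor OVOL1, whose probe lay in a damaged area, by 1.13, 1.81 and 1.87. KLF5 stood at 0.80 at 3 hours and rose by 1.27 and 1.14 at 6 and 12 hours. The fifth rise at 3 hours was GATA3 at 1.12, on a spot in a damaged area where Cy5 went from 541 to 274 units, against 0.11 and 0.12 later. EGFR was at -0.16, -0.67 and -0.43, and at -0.01, -0.30 and -0.16 as the mean over its probes. SOX9 was at 0.78 at 12 hours.

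Genes of the structures that keratin filaments attach to were read next. Among 12 of 18 desmosome and hemidesmosome genes measured at 12 hours 0 rose and 1 fell, with a median of 0.05, where 2.34% of all genes rose and 1.14% fell. The one that fell was PKP3, a desmosomal plaque protein, with 10311, 8782.5, 5090.5 and 3150.5 units and changes of -0.38, -0.65 and -1.21. PKP2, its relative, rose at 6 hours and stood at 0.73, 1.03 and 0.80. Of the plakins and keratin partners 12 of 15 were measured at 12 hours, with 1 rise, against 2.34% of all genes, and a median of 0.05. Periplakin (PPL), a linker of keratin to the cell cortex, went from 93 units to 132.5, 150 and 197 units and stood at 0.49, 0.65 and 1.07. Epiplakin (EPPK1), a keratin-binding plakin, gave 99, 204.5, 268 and 183 units and rose by 1.25 at 6 hours.

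Among 13 of 16 other intermediate filament genes measured, 0 rose (2.34% of all genes) and 1 fell (1.14% of all genes) at 12 hours, with a median of 0.12. Lamin B1 (LMNB1), a filament of the nuclear lamina, gave 1961, 1702, 839 and 407.5 units and changed by -0.19, -0.89 and -1.70. VIM, the filament of mesenchymal cells, was at 0.18, 0.17 and 0.27.

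The other mesenchymal markers on the list were ZEB1, N-cadherin (CDH2) and fibronectin (FN1). ZEB1, a transcription factor, stood at 0.66 and 0.46 at 3 and 12 hours and rose by 1.24 at 6 hours. Its representing probe was dim, at 52, 129, 157 and 52 units. Its second probe stood at 0.30, 0.28 and 0.10 and was not well above background in both dyes on the untreated array. CDH2 was at 0.46, 0.49 and 0.46, and FN1 at -0.07, -0.10 and 0.03. CDH1, the epithelial cadherin, stood at 0.69 at 3 hours and rose by 1.03 and 1.32 at 6 and 12 hours, while EPCAM was at -0.28 at 12 hours. The luminal factors ESR1 and FOXA1 were at 0.02 and -0.16 at 12 hours, and at 0.21 and -0.29 at 6 hours. With median centring the 12-hour changes of CDH1, KLF5 and PPL were 0.98, 0.90 and 0.93, below 2-fold. The 6-hour changes of CDH1 and PKP2 were also below it there, at 0.86 and 0.95. At 3 hours OVOL1 was at 0.80 with the Feature Extraction signals and ELF3 at 0.96 in the Cy5 channel alone.

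**Figure D5:**
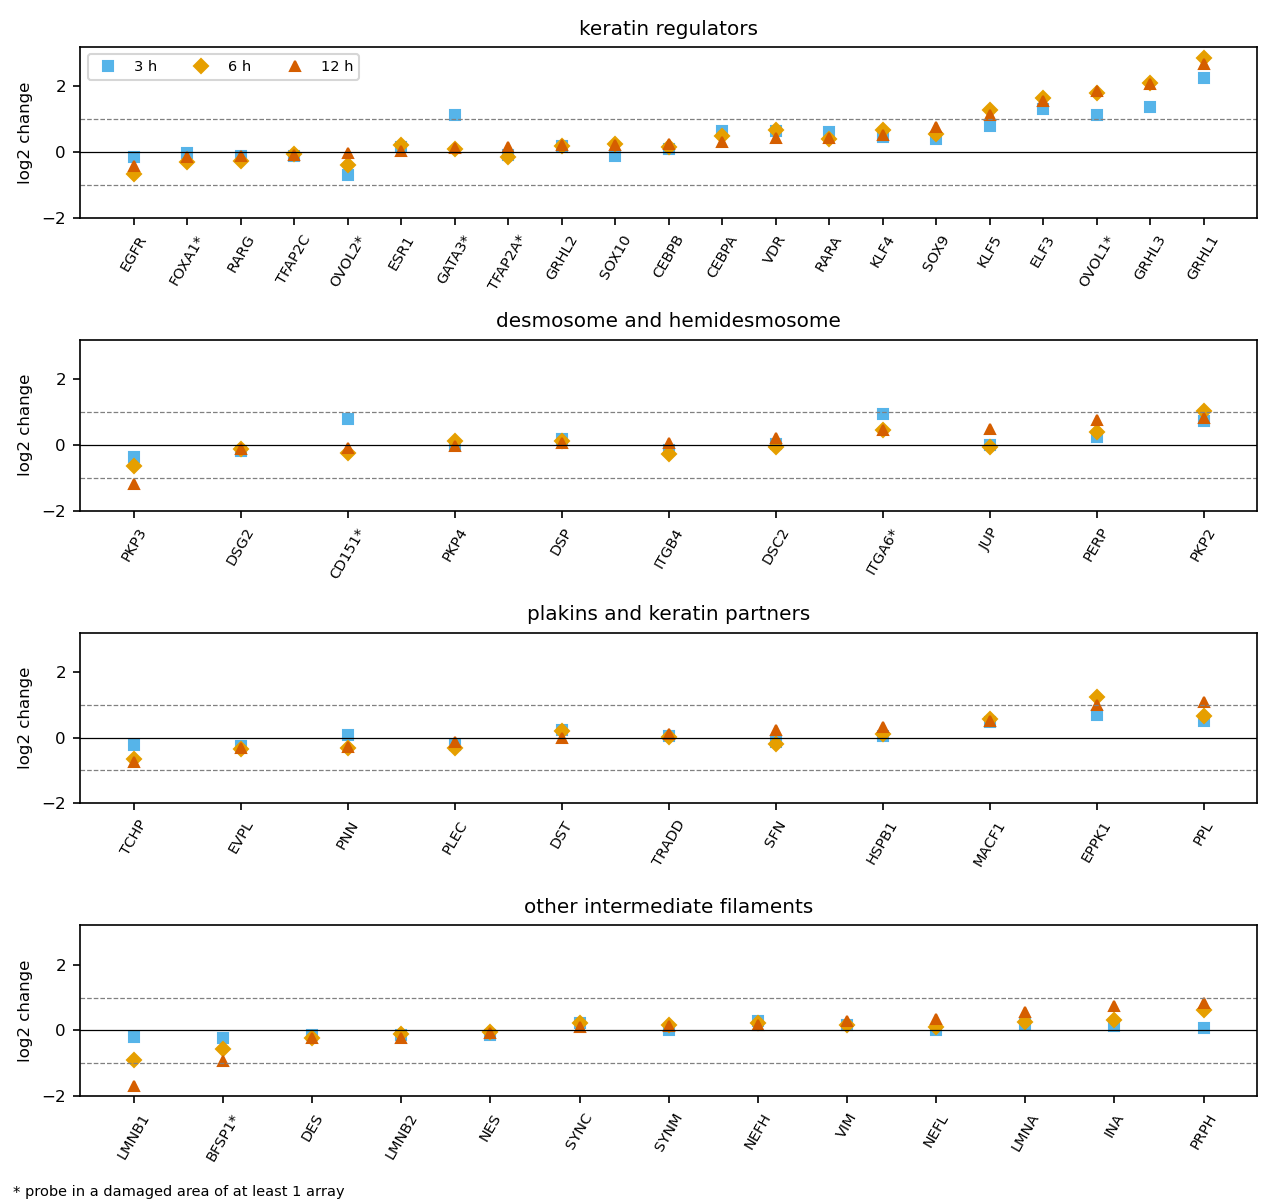
Log2 change from untreated at 3 hours (squares), 6 hours (diamonds) and 12 hours (triangles) for measured genes of 4 lists, each sorted by its 12-hour value, with dashed lines at 2-fold and a star after genes with a probe in a damaged area. GRHL1 ends the regulators at 2.69 and LMNB1 starts the other intermediate filaments at -1.70.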

How the data were processed

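RNA of SUM149 cells was hybridised to 4 two-colour Agilent arrays, 1 per time point. Per the file headers, the authors deposited the median intensity of each spot and of its local background, flags, and the scanner software's own log10 ratio between the dyes. A second deposited table holds log2 ratios of the 4 arrays, whose normalization is not given in the sources used here, and its gene symbols were used. Its values correlated at 0.9735 to 0.9760 with those computed here across probes. Columns of sample values left unused numbered 0.

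From the intensities, background was corrected by normexp (offset 50), control spots were given weight 0 and left out, outlier-flagged spots were set aside, and arrays were normalized by loess and Aquantile (limma 3.58.1, R 4.3.3). Repeated spots were averaged per probe. A gene was represented by its probe of highest mean Cy3 signal, with probes usable on all 4 arrays taken first. Changes are on the log2 scale and the offset understates those of dim probes. A gene was measured when both dyes were well above background on both arrays compared, and called at 2-fold. For genes detected on only 1 of the arrays compared, the fold used the higher of the dim signal and the lowest signal well above background. Damaged areas were windows (13 rows by 7 columns) in which 10% or more of spots were defective. Counts and figures used Python 3.11.15, pandas 2.3.3, numpy 2.4.6, scipy 1.17.1 and matplotlib 3.10.9, and the normalization was tested on simulated data. Promoter sequences and gene positions are RefSeq's (GRCh38.p14).

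The keratins and all gene lists were chosen with earlier results of these data known. Keratins well above background on an array could be named, basal and luminal keratins were all accounted for, and of the regulator, desmosome, plakin and other filament lists the genes past 2-fold and the 1 with the largest 12-hour change were named. SOX9, EGFR, VIM, ALB, pseudogenes, second probes and the cell type markers were named beside that rule, after their values were seen. Alternatives changed the background correction, normalization, signals, filter, probes, damaged areas and threshold. No replicate existed to leave out. One cell type marker is not reported here.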

Additional observations from a re-analysis of the deposited data

How the results depend on the processing

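No paired analysis was possible because every condition was hybridised to a single array. Of 137 values of counts and medians under alternatives 109 stayed close (counts within 1.5-fold, medians within the technical SD) and 28 moved. Those that stayed close include counts of 0 at 2-fold, which cannot differ at 4-fold. Of 1083 changes of single keratins under alternatives 851 stayed within the technical SD and 232 moved. Of the values below, the 12-hour basal median turned positive with outlier-flagged spots kept and the 12-hour keratin median turned negative with median centring and, at -0.0082, in the Cy5 channel alone. Keeping outlier-flagged spots, an alternative chosen after seeing the data, gave 1 rise and 1 fall at 3 hours, 1 rise and 2 falls at 6 hours, 1 rise at 12 hours and a 12-hour basal median of 0.12. A threshold of 1.5-fold gave 1 fall at 3 hours, 4 falls at 6 hours, and 2 rises and 1 fall at 12 hours, and 4-fold gave 0 falls at 6 hours. A normexp offset of 1 gave a 3-hour keratin median of -0.21, 2 falls at 6 hours and 1 fall at 12 hours. The authors' table gave a 3-hour median of -0.21 and 2 falls at 6 hours, and no background subtraction gave 2 falls at 6 hours. Median centring gave 2 falls at 6 hours and 1 at 12 hours, keratin medians of -0.18 at 6 and -0.17 at 12 hours, and 12-hour medians of -0.39 for basal and 0.11 for luminal keratins. The median of all genes moved to 0.08, -0.08 and -0.16 there. Feature Extraction signals gave 3 falls at 6 hours, 2 rises at 12 hours (KRT19, KRT71) and a 6-hour median of -0.17. The share of all genes called was not computed under these alternative signals and normalizations. Their counts of rises and falls therefore cannot be read as particular to keratins. The luminal 12-hour median was 0.36 in Cy5 alone and 0.43 as the mean over all probes. The cause of these differences was not tested. With 1 array per time, dim probes near background and flagged spots limit what can be read, and culture-to-culture spread is unknown.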
